A study of Mus musculus with 20 samples.

Results

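The liver enzymes that turn farnesyl diphosphate into squalene and squalene into cholesterol were followed by the RNA of 9 genes: Fdft1, Sqle, Lss, Cyp51, Msmo1, Nsdhl, Hsd17b7, Sc5d and Dhcr7. They were taken by symbol from a table of raw read counts for 55487 genes, in which all 9 were found and all 9 passed the filter on low counts in every comparison. The table holds 20 libraries, each from the liver of 1 female C57BL/6J mouse killed at 28 weeks of age. The control mice ate chow throughout, whereas the others ate a high-fat diet (HFD) for 10 weeks and then, for 10 more weeks, an HFD that drew part of its protein on fishmeal (made of salmon by-products), on salmon filet or on beef. By the study's diet table, the fishmeal diet also held more cholesterol and more soybean oil than the salmon filet and beef diets. The protein source and these other differences between the diets cannot be told apart. There were 5 libraries per diet by the endings of the table's column names (chow, fishmeal, salmon filet and beef). The study fed 10 mice per diet and sequenced 5 of each that it calls representative. How these were chosen is not given in the sources used here. No genotype or drug differed between groups, and no mouse was kept on the HFD without a supplement, so the effect of the fat and of a supplement cannot be told apart in any comparison with chow. Mouse 31 carries the beef ending in the count table but is recorded as salmon filet in its sample record, so the counts of called members that depend on its place are given under both, and other values by single diet follow the column names.

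Cholesterol is built from acetyl-CoA in a long chain whose early part, up to farnesyl diphosphate, also feeds other isoprenoids, while the part from squalene onward serves sterols. Squalene is closed into lanosterol, 3 methyl groups are removed, and the double bonds of the ring and the side chain are moved or reduced. The same ring enzymes serve the Bloch route, in which the side chain is reduced last, and the Kandutsch-Russell route, in which it is reduced early. Most of these genes are known targets of SREBP-2, a transcription factor whose precursor leaves the endoplasmic reticulum when sterol in its membrane is low.

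The members sit on 9 different chromosomes. In GRCm38, Fdft1 lies at chr14:63145150-63179578, Sqle at chr15:59315077-59331192, Lss at chr10:76531588-76557138, Cyp51 at chr5:4081145-4104746 and Msmo1 at chr8:64718139-64733792. Nsdhl lies at chrX:72918557-72958514, Hsd17b7 at chr1:169949535-169969241, Sc5d at chr9:42251595-42264256 and Dhcr7 at chr7:143823145-143848410. Exons of Fdft1, Lss and Cyp51 overlap genes on the opposite strand, which are Ctsb (610.3 CPM on average), 4930483K19Rik and Akap9, and the libraries were made with a strand-specific kit while the counting setting is not given in the sources used here. Fdft1 also shares 1249 bases at 97.4% identity with the pseudogene Gm6781, and how the counting shared reads between them is not known.

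Promoter sequence (250 bases before to 50 after the RefSeq start, GRCm38.p6) was at hand for 7 of the 9 members, Lss, Cyp51, Msmo1, Nsdhl, Hsd17b7, Sc5d and Dhcr7. Both strands were searched for TCACNCCAC, a core of the sterol regulatory element bound by SREBP-2, and for the looser TCACNNCA, which every TCACNCCAC also matches. The looser letters stood in 6 of the 7 promoters, all but that of Lss, against 15.7% of 27025 genes with a promoter in the table. In the 250 bases before the start alone, 5 of 7 held it, against 13.0% of genes. Dhcr7 counts through its second and last listed starts, whose 200 bases upstream lie in an exon, and its first start had no match. The 200 bases upstream of the Msmo1 start lie in an exon as well. The stricter letters stood in none of the 7 and in 1.44% of all genes. CCAAT, bound by NF-Y, and GGGCGG, bound by Sp1, were each in 7 of 7 member promoters, against 41.1% and 38.2% of all genes. They were also frequent in the circadian clock genes used below. Of 4 early-phase clock genes, 3 held CCAAT and 4 held GGGCGG, and of 6 late-phase clock genes, 5 held each. Of 3 redox partners of the members, 1 held each. Dhcr7 holds CCAAT at its last listed start alone, whose 200 bases upstream lie in an exon. The E-box CACGTG was in 3 of 7, in Hsd17b7, Sc5d and Dhcr7, against 8.09% of all genes. The E-box of Dhcr7 lies upstream of its second listed start. The stretches of 4 of them upstream of the annotated gene start are shown because 3 hold the looser match and 1, Lss, lacks it. Capitals mark TCACNNCA or CCAAT on either strand, the latter reading ATTGG when it lies on the other strand.
Cyp51 (chr5:4104747-4104897, minus strand): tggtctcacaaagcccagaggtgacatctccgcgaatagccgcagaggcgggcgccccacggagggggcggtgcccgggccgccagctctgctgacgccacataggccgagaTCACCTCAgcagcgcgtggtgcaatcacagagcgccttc
Hsd17b7 (chr1:169969242-169969405, minus strand): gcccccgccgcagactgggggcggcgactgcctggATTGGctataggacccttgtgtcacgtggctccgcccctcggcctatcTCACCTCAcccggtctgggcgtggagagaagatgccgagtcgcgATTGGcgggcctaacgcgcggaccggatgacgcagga
Sc5d (chr9:42264301-42264500, minus strand): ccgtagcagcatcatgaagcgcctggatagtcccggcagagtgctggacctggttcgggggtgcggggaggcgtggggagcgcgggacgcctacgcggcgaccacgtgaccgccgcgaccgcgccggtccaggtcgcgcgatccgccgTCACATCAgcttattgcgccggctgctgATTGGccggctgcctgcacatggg
Lss (chr10:76531405-76531587, plus strand): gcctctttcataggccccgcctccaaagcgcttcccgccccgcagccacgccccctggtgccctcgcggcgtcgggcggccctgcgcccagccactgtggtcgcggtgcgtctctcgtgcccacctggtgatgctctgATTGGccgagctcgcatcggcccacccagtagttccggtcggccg
These matches are letters in a window and were not tested as binding sites, and no match in Lss says only that the letters are not in these 300 bases.

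The libraries held 42526234 to 70266136 counts on genes. Protein coding genes took 93.2% to 95.6% of counts, apart from 84.3% in mouse 35 of the beef group. None of the 40 pairs of libraries within a diet was alike enough to be 1 library deposited again (chi-square per gene of 35.1 to 457). A score of the circadian clock, the mean log2 CPM of 7 late-phase genes minus that of 4 early-phase genes, was -2.65 ± 0.81 (SD, n = 5) in chow and 0.57 ± 1.86 (SD, n = 15) in HFD mice, with ranges of -3.32 to -1.34 and -2.38 to 3.55. The hepatocyte markers Alb, Ttr, Apoa1, Apob, Tat and Cps1 summed to 89225 to 122286 CPM in every library, and adipocyte and exocrine pancreas markers each summed to at most 0.336 CPM. Summed T and B cell markers (Cd3e, Cd79b, Ms4a1) were 1.90 to 4.98 CPM in chow mice and 1.17 to 2.17 CPM in HFD mice. Summed pericentral hepatocyte markers (Glul, Oat, Cyp2e1, Slc1a2, Axin2) were 6075 to 9704 CPM in chow and 8760 to 13642 CPM in fishmeal. Cyp2e1 made up most of that sum (5147 and 8330 CPM on average), Glul had 1512 and 1632 CPM, and Axin2 went the other way, from 18.0 to 11.02 CPM. Summed cholangiocyte markers (Krt19, Krt7, Epcam, Sox9) were 9.34 to 15.8 CPM in chow and 5.78 to 8.52 CPM in fishmeal. Sox9 made up most of that sum, at 6.55 to 10.06 and 3.78 to 4.96 CPM, and Krt19, Krt7 and Epcam overlapped between these diets. The part of these cell type markers in the results against chow was not tested. In whole liver, fewer cells of a type and less RNA per cell cannot be told apart. The labels give no cage, litter or batch, and the p-values measure the spread between these mice.

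Levels of different genes were compared on the TPM scale, which divides by gene length. In chow livers Sc5d, the desaturase that introduces the C5 double bond, was the highest of the 9 at 539.6 ± 119 TPM (SD, n = 5). Cyp51 (145 ± 41.5 TPM), Fdft1 (130.4 ± 37.9 TPM), Nsdhl (111 ± 27.1 TPM) and Msmo1 (109 ± 35.2 TPM) followed, and the spread of each covered the mean of its neighbour in that order. Dhcr7 (56.9 ± 15.2 TPM), Sqle (54.1 ± 17.9 TPM) and Hsd17b7 (53.3 ± 17.9 TPM) lay within 1 SD of each other, and Lss, at 29.2 ± 12.6 TPM, was the lowest. In fishmeal livers the order ended differently. Sc5d stayed at the top at 307 ± 32.6 TPM, Lss was at 7.70 ± 0.695 TPM, and Sqle was the lowest at 4.05 ± 2.29 TPM. Salmon filet livers had 26.3 ± 7.07 TPM and beef livers 19.2 ± 7.18 TPM of Sqle. Of the summed TPM of the 9 genes, Sc5d made up 44.3% ± 7.09 in chow, 66.8% ± 3.57 in fishmeal, 53.97% ± 3.48 in salmon filet and 57.9% ± 4.60 in beef (SD, n = 5 each), and Sqle 4.34%, 0.865%, 2.82% and 2.32%.

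**Figure D1:**
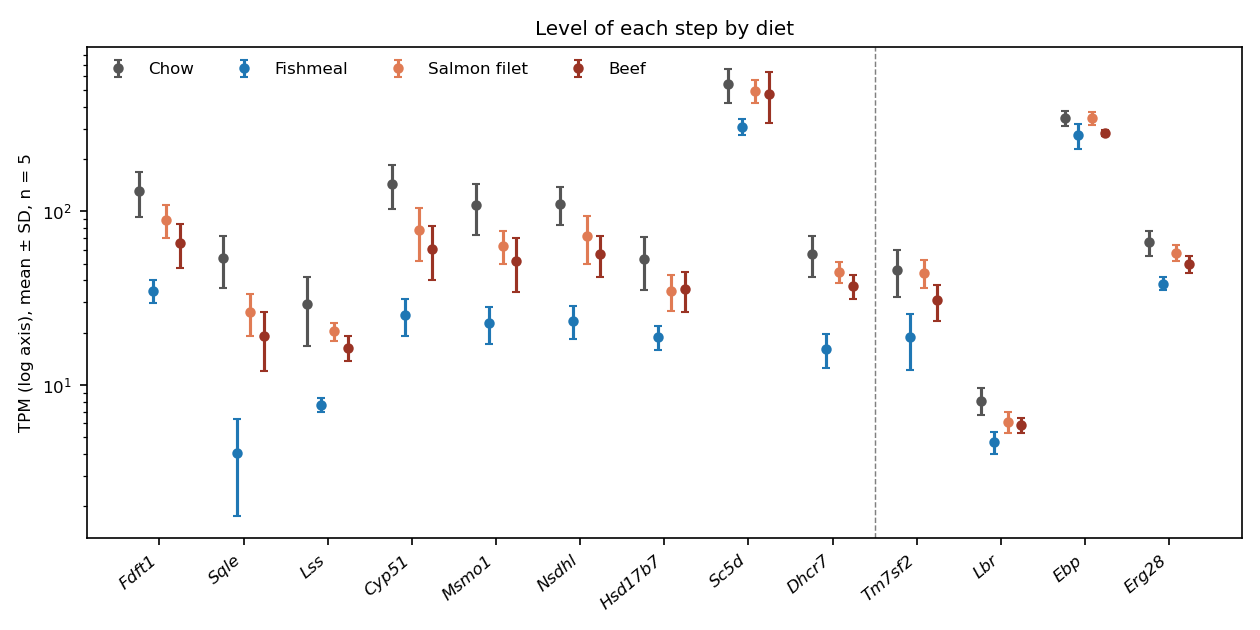
Mean TPM on a log axis, with SD over 5 mice per diet, for the 9 enzymes in pathway order and, right of the dashed line, for Tm7sf2, Lbr, Ebp and Erg28. Fishmeal livers had the lowest mean at each of the 13 genes, with Sqle at 4.05 TPM against 54.1 TPM in chow.

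Fdft1 is squalene synthase, which joins farnesyl diphosphate into squalene. CPM (counts scaled by library size and TMM) in chow livers were 167, 221, 301, 210.4 and 135 in mice 1, 2, 5, 7 and 10. Fishmeal livers had 72.1, 66.1, 46.0, 53.9 and 51.1 CPM in mice 12, 13, 14, 16 and 20. Every fishmeal mouse was below every other mouse of the study, since salmon filet livers ranged from 111 to 172 CPM and beef livers from 78.3 to 144 CPM.

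Sqle, squalene epoxidase, adds the first oxygen and is one of the flux-controlling steps of the pathway. It had 90.5, 130.2, 176, 109 and 72.8 CPM in the chow mice (same order) and 10.8, 16.3, 4.36, 8.68 and 5.08 CPM in the fishmeal mice. Salmon filet mice 22, 23, 25, 26 and 27 had 50.9, 45.1, 46.0, 66.3 and 75.3 CPM. Beef mice 31, 32, 35, 39 and 40 had 61.3, 48.9, 52.0, 26.8 and 27.5 CPM. The fishmeal mice were all under the lowest of the beef mice, and beef mice were all under the lowest chow mouse, whereas salmon filet overlapped chow by mouse 27 alone.

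Lss, lanosterol synthase, folds squalene epoxide into the sterol ring. Its CPM were 75.0, 166, 178, 119 and 66.3 in chow, 40.0, 34.0, 27.5, 32.7 and 33.0 in fishmeal, 78.1, 76.0, 88.2, 93.2 and 92.9 in salmon filet and 73.6, 80.3, 86.8, 53.0 and 68.0 in beef. The fishmeal mice stood apart again, while the other HFD mice overlapped chow mice 1 and 10. Cyp51, the demethylase that takes the methyl group off C14, had 198, 249, 362, 256 and 165 CPM in chow and 61.1, 53.4, 28.9, 47.7 and 35.3 CPM in fishmeal. In salmon filet livers it had 118, 87.6, 109, 173 and 179 CPM, and in beef livers 154, 125, 112, 76.3 and 77.9 CPM. The highest fishmeal mouse was below the lowest of the rest, mouse 39.

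Msmo1, Nsdhl and Hsd17b7 remove the pair of methyl groups at C4 in turn as oxidase, dehydrogenase and ketoreductase. Msmo1 ranged from 183 to 402 CPM in chow, 41.7 to 73.0 in fishmeal, 124 to 189 in salmon filet and 84.6 to 179.7 in beef. Nsdhl ranged from 82.4 to 157 CPM, 17.2 to 36.6, 52.9 to 107 and 48.1 to 82.5 in the same order. For Hsd17b7 the ranges were 79.1 to 174, 35.4 to 42.9, 54.7 to 87.9 and 56.9 to 94.96 CPM. Fishmeal did not overlap any other diet for these 3 genes, and mouse 5 was the highest chow mouse for each.

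Sc5d and Dhcr7 finish the ring, Sc5d by placing a double bond and Dhcr7 by reducing its neighbour. Sc5d had 1264, 975.4, 1087, 1083 and 649 CPM in chow and 741, 531, 492, 693 and 563 CPM in fishmeal. In salmon filet livers it had 957, 739, 1001, 977 and 1035 CPM, and in beef livers 963, 1378, 834, 719.8 and 798 CPM. It was the sole member whose fishmeal range overlapped the other diets. Dhcr7 had 100.98, 155, 169, 119 and 92.9 CPM in chow, 56.9, 35.4, 23.1, 38.7 and 37.6 CPM in fishmeal, 86.7 to 113 CPM in salmon filet and 69.0 to 111 CPM in beef. Its fishmeal values were below every other mouse.

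**Figure D2:**
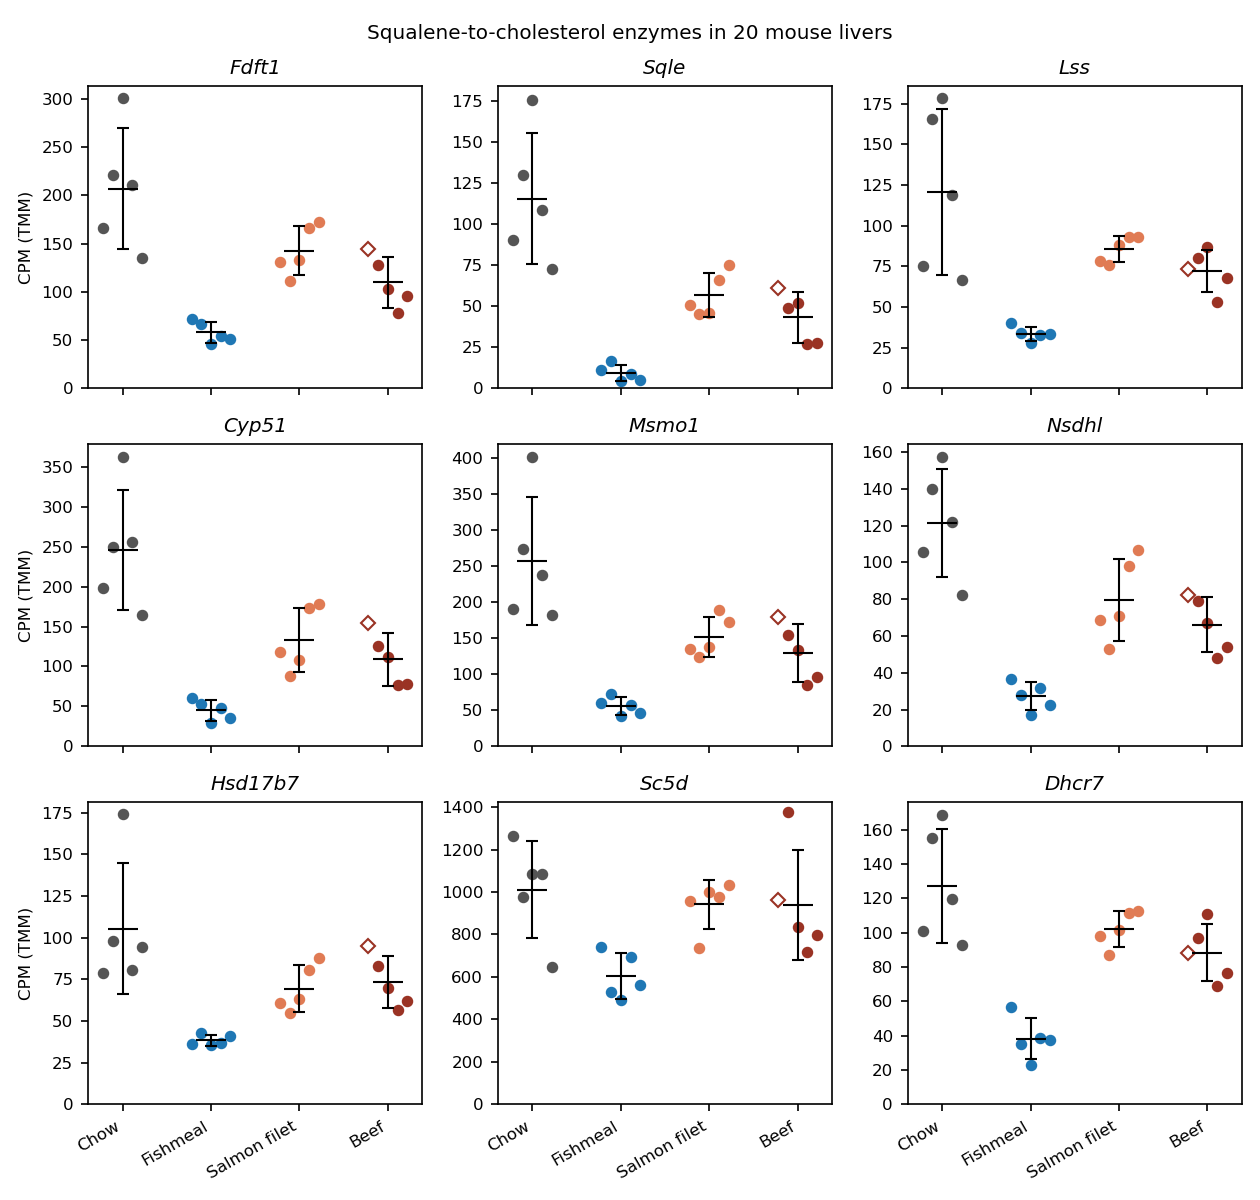
CPM (linear axis from 0) of the 9 enzymes in each of 20 livers by diet, with the mean and SD of 5 mice. The open diamond is mouse 31, placed in beef by column name and recorded as salmon filet. In 8 of the 9 panels the 5 fishmeal points lie below all others. Of all genes tested, 0.202% had fishmeal wholly below the other HFD mice, and 3.13% had it wholly below chow.

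The first comparison asks what differs between the HFD as a whole (15 mice) and chow (5 mice). In edgeR's quasi-likelihood test, adjusted over 17120 genes, 7 of the 9 members were lower in HFD livers and 2, Sc5d and Dhcr7, did not pass. Of all genes tested, 9.75% were called in either direction and 5.21% were called lower. Sqle showed the largest shift, from 116 ± 39.8 (SD, n = 5) to 36.3 ± 23.6 CPM (SD, n = 15), which is -1.67 on the log2 scale (SE 0.46, adjusted p = 0.0220). Cyp51 differed by -1.36 (SE 0.31, adjusted p = 0.00642), Msmo1 by -1.20, Nsdhl by -1.08, Fdft1 by -1.004, Lss by -0.93 and Hsd17b7 by -0.80 on the log2 scale. The log2 difference was -0.74 for Dhcr7 (SE 0.28, adjusted p = 0.0927) and -0.29 for Sc5d (SE 0.19, adjusted p = 0.351). For 8 members each of the 15 HFD mice was below the chow mean, and for Sc5d 13 were, but no member separated the groups, which 0.888% of all genes did in this direction. The median log2 fold change of the 9 was -1.004, against 0.00 over all genes. The count fell to 0 of 9 with the clock score as a covariate, and the part of the clock in it was not tested further. The share of all genes called in that fit was not recorded. The count of members fell to 2 without chow mouse 5, the highest chow mouse for 8 of the 9 genes, and to 4 without chow mouse 2.

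Each HFD group was then set against the same 5 chow mice, so these comparisons share their controls. Fishmeal livers had all 9 members lower, where 3.38% of 16471 genes were called and 1.93% as lower. The log2 fold changes were -3.68 for Sqle (SE 0.36, adjusted p = 2.52e-04), -2.45 for Cyp51 (SE 0.24), -2.21 for Msmo1 (SE 0.22), -2.17 for Nsdhl (SE 0.22), -1.86 for Lss (SE 0.26), -1.84 for Fdft1 (SE 0.20), -1.74 for Dhcr7 (SE 0.23), -1.46 for Hsd17b7 (SE 0.19) and -0.75 for Sc5d (SE 0.18, adjusted p = 0.0373). For 8 members the groups did not overlap, which 3.13% of all genes did in this direction. With the clock score as a covariate 5 of the 9 remained past the threshold.

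In beef livers 4 members were lower than in chow, which were Sqle (-1.42, adjusted p = 0.0211), Cyp51 (-1.17, adjusted p = 0.0228), Fdft1 (-0.92, adjusted p = 0.0411) and Nsdhl (-0.88, adjusted p = 0.0324), where 3.05% of genes were called and 1.52% as lower. For 3 members beef and chow did not overlap, which 3.17% of genes did in this direction. By the sample record 5 members were called, with Msmo1 added, where 2.48% of genes were. In salmon filet livers Sqle was the member that passed (-1.03, SE 0.22, adjusted p = 0.0303), where 4.42% of genes were called and 2.2% as lower, and by the sample record Sqle and Cyp51 did, where 4.46% were. Both counts hang on single mice. The beef count was 0 without chow mouse 2, 1 without chow mouse 7 or beef mouse 39 or 40, and 2 without chow mouse 5 or beef mouse 35. The salmon filet count was 0 without chow mouse 2 or 7 or without salmon filet mouse 22, 23, 25 or 26. It was 3 without chow mouse 10. With the clock score as a covariate both were 0.

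The second question was whether the supplements differ among HFD mice. Fishmeal (5 mice) was compared with salmon filet and beef together (10 mice), which does not depend on where mouse 31 belongs. Among 16795 genes tested, 26 (0.155%) were called by edgeR, 24 of them lower (0.143%), and 8 of those 24 were members, all but Sc5d. Sqle had 9.04 ± 4.83 CPM (SD, n = 5) against 50.0 ± 15.4 CPM (SD, n = 10), 5.49-fold lower or -2.46 on the log2 scale (SE 0.31, adjusted p = 0.00144). Cyp51 had 45.3 ± 13.1 against 121 ± 37.1 CPM, or -1.41 on the log2 scale (SE 0.23, adjusted p = 0.0105). Nsdhl followed at -1.41 (SE 0.21, adjusted p = 0.00476), Msmo1 at -1.33 (SE 0.19, adjusted p = 0.00354) and Dhcr7 at -1.30 (SE 0.17, adjusted p = 0.00184). Lss, at -1.23, had the smallest adjusted p of the 9 (SE 0.13, adjusted p = 2.51e-04). Fdft1 was at -1.12 (SE 0.17, adjusted p = 0.00769) and Hsd17b7 at -0.88 (SE 0.13, adjusted p = 0.00714). Sc5d had 604 ± 107 against 940.1 ± 191 CPM, which did not pass (-0.63, SE 0.15, adjusted p = 0.197), and 5 of the 5 fishmeal mice were below the mean of the others. For the 8 called members the groups did not overlap, which 0.202% of all genes did in this direction. The 8 called members were called again in each of 15 fits that left out 1 mouse. They were also called under the 7 other settings tried, the clock score as a covariate among them, and DESeq2 called Sc5d as well.

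By single supplement, 8 members were lower in fishmeal than in salmon filet livers, again all but Sc5d, where 0.170% of 16494 genes were called. These 8 did not overlap between the groups, which 0.758% of genes did in this direction, and the log2 fold changes ran from -2.65 for Sqle to -0.85 for Hsd17b7. The same 8 were called by the sample record (0.157% of genes), and 5 remained without fishmeal mouse 13 or mouse 20. Against beef, 1 member passed, Lss (-1.11, SE 0.15, adjusted p = 0.0337), where 0.0245% of 16304 genes were called and 0.0184% as lower. All 9 had an unadjusted p under 0.05 there, and 8 did not overlap (0.386% of all genes), with log2 fold changes from -2.26 for Sqle to -0.64 for Sc5d. By the sample record (0.00607% of genes called), or without mouse 31, the count was 0, whereas DESeq2 called 8. Without fishmeal mouse 13, 14, 16 or 20 or beef mouse 32, 35 or 40 it was 0, and without beef mouse 39 it was 2, with Hsd17b7 added. These comparisons share their fishmeal mice. Between salmon filet and beef, edgeR (0% of genes called) and DESeq2 called 0 members, and 1, Fdft1, had an unadjusted p under 0.05 (log2 fold change 0.37, SE 0.17). The interval of 95% for Sqle, -0.17 to 0.93 on the log2 scale, shows the size of difference these 5 mice per diet leave possible.

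**Figure D3:**
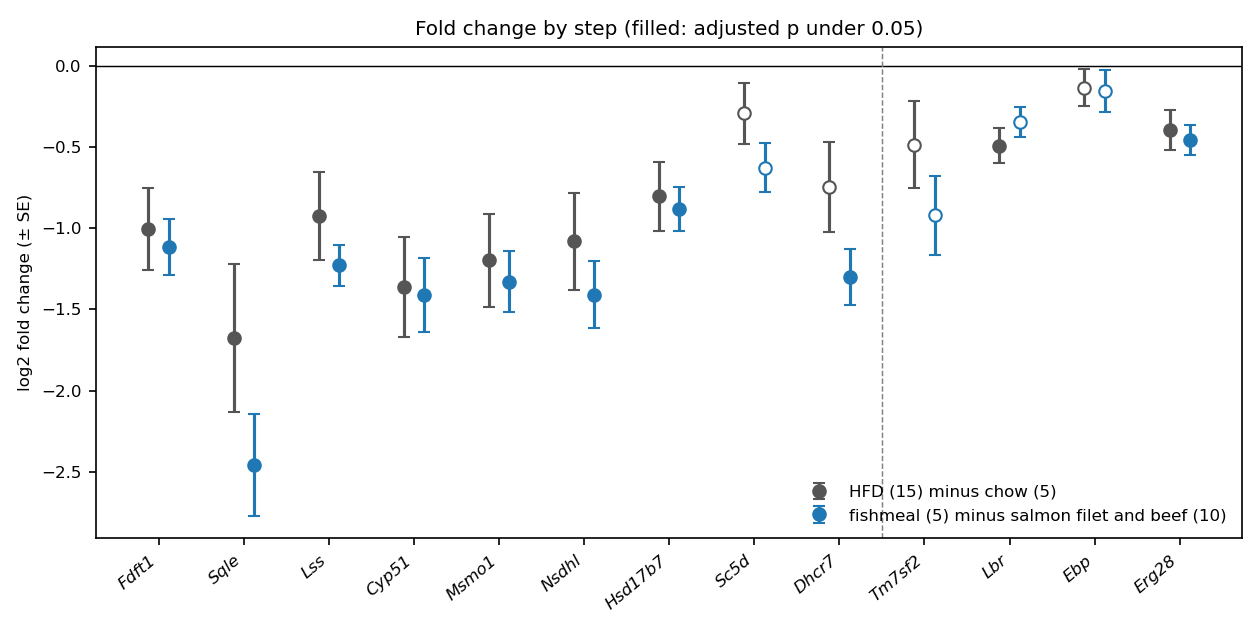
Log2 fold change with its SE for the 9 enzymes in pathway order and, right of the dashed line, for Tm7sf2, Lbr, Ebp and Erg28, in HFD minus chow (grey) and fishmeal minus the other HFD diets (blue). Filled points passed an adjusted p of 0.05. Sqle is the lowest point of both series, at -1.67 and -2.46, and Tm7sf2 and Ebp are open in both.

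Whether a step moved more than the rest of the chain was asked within each mouse, as its log2 CPM minus the mean log2 CPM of the other 8 members. The 9 members in both comparisons made 18 exact permutation tests (two-sided), adjusted together. Sqle fell further than the other steps in both. The difference was -0.80 ± 0.09 in chow, -1.29 ± 0.13 in salmon filet, -1.53 ± 0.27 in beef and -2.80 ± 0.58 in fishmeal (log2, SD, n = 5 each). HFD was 1.07 below chow by this measure (a shift of -1.07, exact p = 0.00793, adjusted p = 0.0178), and fishmeal differed from the other HFD mice by -1.39 (exact p = 0.000333, the smallest that 3003 assignments can give, adjusted p = 0.0030).

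Sc5d moved the other way relative to the chain, and its own RNA differed least. It stood 2.75 ± 0.44 above the other 8 in chow, 3.29 ± 0.19 in salmon filet, 3.51 ± 0.28 in beef and 4.18 ± 0.26 in fishmeal on the log2 scale. The shift was 0.91 in HFD against chow (exact p = 0.00103, adjusted p = 0.00464) and 0.78 in fishmeal against the other HFD mice (exact p = 0.000666, adjusted p = 0.0040). In HFD against chow, Cyp51 moved down by a further -0.43 (exact p = 6.45e-05, the smallest that 15504 assignments can give, adjusted p = 0.00116) and Msmo1 by -0.20 (exact p = 0.00626, adjusted p = 0.0161). Dhcr7 stood 0.30 higher relative to the others (exact p = 0.0089, adjusted p = 0.0178). Among the HFD diets those 3 shifts were -0.10, -0.00 and -0.03 and did not pass. There, Hsd17b7 stood 0.51 higher relative to the others (exact p = 0.0040, adjusted p = 0.0120) and Fdft1 0.24 higher (exact p = 0.0030, adjusted p = 0.0108). A fall of Sqle raises the mean shift of the others, so the shifts were also taken against the other members without Sqle, a setting chosen after the data were seen. Fdft1 then did not pass among the HFD diets (0.07, exact p = 0.357, adjusted p = 0.401), nor did Dhcr7 in HFD against chow (0.17, exact p = 0.131, adjusted p = 0.182). Sc5d stood 0.79 and 0.61 higher (adjusted p = 0.00395 for each by the exact test), and Hsd17b7 0.34 higher among the HFD diets (exact p = 0.0200, adjusted p = 0.0400). Nsdhl passed downward in both, by -0.26 (exact p = 0.0135, adjusted p = 0.0303) and -0.29 (exact p = 0.0030, adjusted p = 0.00899). Cyp51 passed among the HFD diets as well (-0.28, exact p = 0.0273, adjusted p = 0.0492). Single mice were left out only with shifts taken against all 8 other members. By that first measure, 3 of the 5 shifts in HFD against chow passed without chow mouse 5. The 4 shifts between HFD diets passed in each of 15 repeats that left out 1 HFD mouse.

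**Figure D4:**
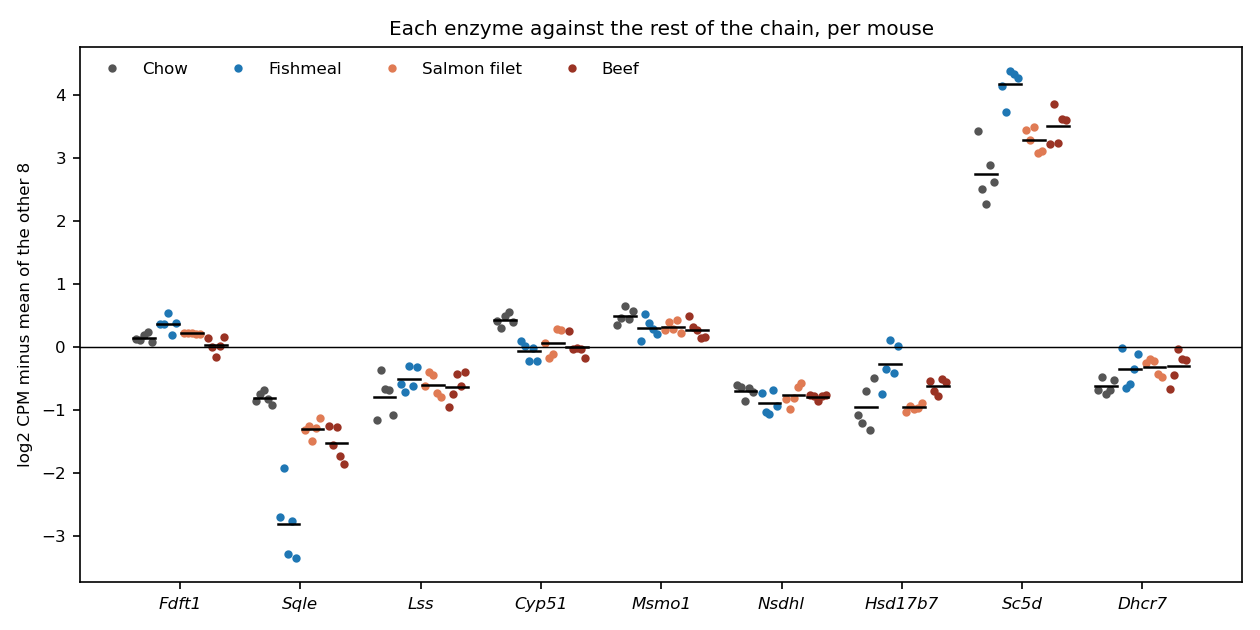
For each enzyme, log2 CPM in each mouse minus the mean log2 CPM of the other 8, by diet, with lines at the group means. Sqle runs from -0.80 in chow to -2.80 in fishmeal, Sc5d from 2.75 to 4.18, and Nsdhl stays between -0.69 and -0.88.

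The 9 enzymes serve both the Bloch and the Kandutsch-Russell route, so their RNA does not tell the routes apart, and sterols of neither route were analysed here. The C14 reductases Tm7sf2 and Lbr, which do the same step, had a log2 ratio that did not differ past the threshold between HFD and chow (-0.08, exact permutation p = 0.780). Among HFD mice the ratio of Tm7sf2 to Lbr was 0.64 lower in fishmeal (a difference of -0.64, exact permutation p = 0.0353, adjusted p = 0.0424 over 3 ratios in both comparisons), which kept the threshold in 5 of 15 repeats with 1 HFD mouse left out.

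Of 4 other genes that act after squalene (Tm7sf2, Lbr, Ebp and Erg28, the scaffold of C4 demethylation), 2 were lower in HFD than in chow and 1 in fishmeal than in the other HFD mice. Lbr changed by -0.49 (SE 0.11, adjusted p = 0.00484) and Erg28 by -0.39 (SE 0.12, adjusted p = 0.0436) in HFD against chow, and Erg28 by -0.46 (SE 0.09, adjusted p = 0.0496) in fishmeal. Ebp, the isomerase just before Sc5d, had log2 fold changes of -0.14 and -0.16. The median over the 4 was -0.44 and -0.40, against -1.004 and -1.30 over the 9 members and 0.00 and 0.01 over all genes.

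Before squalene, 4 of 8 genes of the mevalonate arm (Acat2, Hmgcs1, Mvk, Pmvk, Mvd, Idi1, Fdps, Ggps1) were lower in HFD than in chow, and 4 of 8 in fishmeal than in the other HFD mice. Idi1, the isomerase of the isoprene unit, changed by -1.52 and -1.76 (adjusted p = 0.0128 and 0.0105). Fdps, which makes the substrate of Fdft1, had the largest difference of the 8 between HFD diets, from 14.8 ± 5.11 to 2.98 ± 0.57 CPM (log2 fold change -2.31, SE 0.27, adjusted p = 5.35e-04). In HFD against chow Fdps did not pass (-0.85, adjusted p = 0.246). Ggps1, which leads to other isoprenoids, was at -0.19 and -0.01. None of the 5 redox partners (Por, Cyb5a, Cyb5b, Cyb5r3, Cyb5r1) that feed electrons to Sqle, Cyp51, Msmo1 and Sc5d was called by edgeR in either comparison, and 1 had an unadjusted p under 0.05 in each.

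The next 7 genes control SREBP-2, are among its other targets or, for Mylip, act on lipoprotein uptake (Srebf2, Srebf1, Scap, Insig1, Insig2, Mylip, Stard4). By edgeR, 1 of them was called lower in fishmeal than in the other HFD mice, the sterol carrier Stard4 (-0.49, SE 0.09, adjusted p = 0.0341). Srebf2 itself had 45.6 ± 9.16 against 67.1 ± 13.4 CPM and did not pass (-0.55, SE 0.15, adjusted p = 0.354). Insig1 had 231 ± 80.9 CPM in fishmeal, 458 ± 37.1 in salmon filet and 390 ± 106 in beef (SD, n = 5 each), and was not called. In this comparison 3 of the 7 had an unadjusted p under 0.05 by edgeR. In HFD against chow 1 of the 7 was called, Srebf1, which was higher (log2 fold change 1.42, SE 0.18, adjusted p = 2.22e-05). It codes for SREBP-1, which is better known for fatty acid synthesis. Of 4 further genes of sterol and enzyme handling (March6, Sec14l2, Pgrmc1, Tmem97), none was called by edgeR in either comparison, with 1 at an unadjusted p under 0.05 in each.

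Across mice of the same diet the members rose and fell together. With each diet's mean removed from log2 CPM, the 36 pairs of members had a median Pearson r of 0.751 over 20 mice, from 0.285 (Hsd17b7 and Sc5d) to 0.962 (Cyp51 and Nsdhl). After adjustment over the 36 pairs, 32 passed by Pearson's r and 34 by Spearman's rho (100000 permutations within diets, two-sided). Over all pairs of the 12692 genes with a mean of at least 1 CPM, the median r was 0.000294 and the 95th percentile 0.645, so a high r between genes is common in these libraries. Member pairs passed down to an r of 0.504 (Hsd17b7 and Dhcr7), which is below that percentile. The share of all pairs that would pass the same test was not recorded. An r of at least 0.9 was held by 7 of the 36 pairs and by 0.154% of all pairs.

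Cyp51 and Nsdhl (rho 0.964, permutation p = 1e-05, the smallest these permutations can give) were followed by Fdft1 with Cyp51 (r 0.945, rho 0.955, permutation p = 1e-05 each) and Fdft1 with Msmo1 (r 0.940, rho 0.950, permutation p = 1e-05 each). The 4 pairs that did not pass by r all held Sc5d, paired with Sqle (r 0.462, rho 0.510, permutation p = 0.0628, adjusted 0.0668), Lss (r 0.448, rho 0.475, permutation p = 0.114, adjusted 0.117), Msmo1 (r 0.503, rho 0.541, permutation p = 0.0631, adjusted 0.0668) and Hsd17b7 (r 0.285, rho 0.304, permutation p = 0.310, adjusted 0.310). The median r of a gene with the other 8 was highest for Msmo1 (0.847), Cyp51 (0.843) and Nsdhl (0.840) and lowest for Sc5d (0.529) and Hsd17b7 (0.647). Without the 2 mice farthest from the median of the pair's first gene, the median r over pairs was 0.726, with a range of 0.223 to 0.951. In the 15 HFD mice alone it was 0.761, and with the clock score removed within diets it was 0.778. None of the 9 was related to the clock score past an adjusted p of 0.05, with the strongest at r -0.605 for Sqle (rho -0.567, permutation p = 0.0139 and 0.0251, adjusted p = 0.0679 and 0.0824) and r -0.569 without mice 25 and 31.

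**Figure D5:**
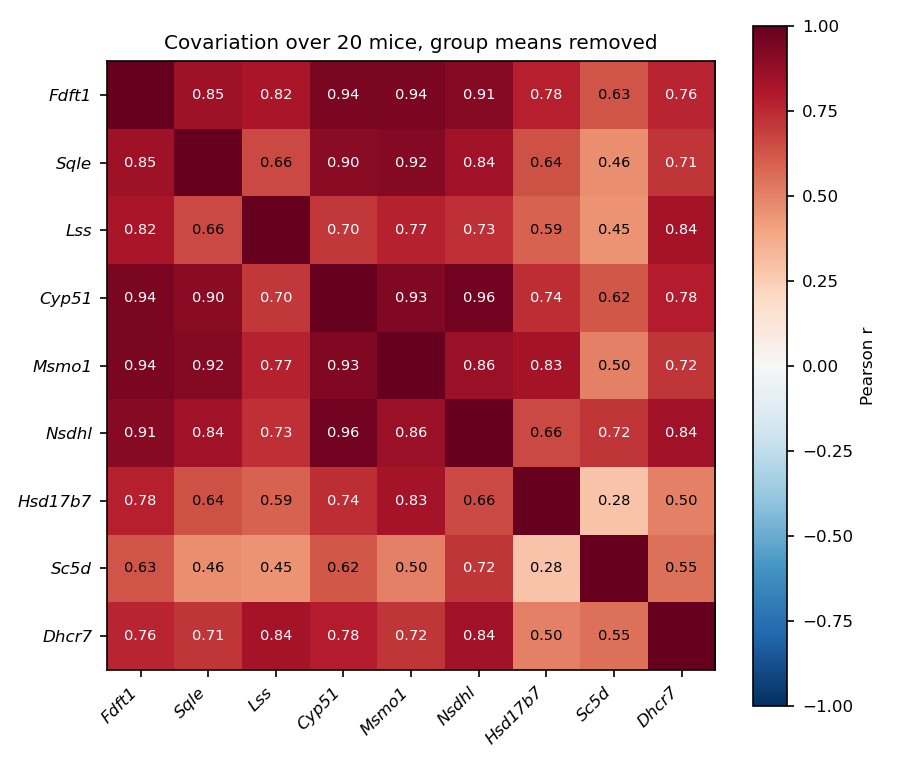
Pearson r between each pair of the 9 enzymes over 20 mice, on log2 CPM with the diet means removed. Off the diagonal, the darkest cell is Cyp51 with Nsdhl at 0.96, and the row of Sc5d is palest, down to 0.28 with Hsd17b7.

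The 10 other genes most like the members within diets, by the mean r with all 9 over the 20 mice, were Idi1 (0.808), Fdps (0.773), Sgsm1 (0.744), Mmab (0.715), Acat2 (0.712), the pseudogene Gm13502 (0.707), Rdh11 (0.702), Stard4 (0.683), Hmgcs1 (0.681) and Cdkl2 (0.680), and 4 of them belong to the mevalonate arm. Ebp had a mean r of 0.238. At the other end, the Kupffer cell markers Clec4f (mean r -0.696, rank 12691 of 12692 genes), Cd5l (-0.654), Vsig4 (-0.570) and Timd4 (-0.453) were lowest where the members were highest. Summed over these 4 markers, the level ranged from 135 to 272 CPM in chow, 139 to 249 in fishmeal, 143 to 236 in salmon filet and 138 to 280.1 in beef, so the diets overlapped. The part of Kupffer cells in the spread of the members was not tested.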

How the data were processed

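RNA was measured in 20 livers, 1 strand-specific library per mouse. Per the labels and the study's methods, the authors trimmed reads with BBDuk, aligned them with HiSat2 (1.2.1 in the submitters' processing notes) and assigned them to Ensembl genes by featureCounts (1.4.6-p1), and the deposited counts are not normalized. The TPM table is also the authors' and divides by gene length. The strand and multimapping settings of the counting are not given in the sources used here. Groups came from the column names, and the sample record, which differs for mouse 31, was an alternative.

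Genes with too few counts were dropped by edgeR's filterByExpr (minimum count 10). Each comparison was fitted on its own libraries with TMM and edgeR (4.0.16 in R 4.3.3) quasi-likelihood tests, and p-values were adjusted by Benjamini-Hochberg over all genes tested, with a threshold of 0.05. DESeq2 (1.42.0), limma (3.58.1) on log2(TPM + 1), other scalings and filters, a clock covariate and each mouse left out were alternatives. CPM used TMM over all 20 libraries, and log2 CPM a prior count of 2. Ratios within a mouse were compared with exact permutation tests (two-sided), and correlations with permutations within diets, both in numpy (2.4.6). Ranks for Spearman's rho came from scipy (1.17.1). The tests were tested on simulated data. The members and lists were chosen with earlier results of these data known. The named genes are the 9 members, those of the listed pathways and the 10 genes with the highest mean correlation with the members. Promoters came from RefSeq and gene models from GENCODE, both on GRCm38. Some genes of the pathway lists are not reported here, and the counts of those lists leave them out. With 5 mice per diet the spread between mice, not depth, limits the precision.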

Additional observations from a re-analysis of the deposited data

Results flagged for a closer look

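In 36 groups of 5 mice (9 members in 4 diets), 2 held a mouse far from the other 4 by Dixon's criterion, where chance gives about 1 in 20. Hsd17b7 was at 174 CPM in chow mouse 5, above the other chow mice at 79.1 to 98.1 CPM. Sc5d was at 739 CPM in salmon filet mouse 23, below the other salmon filet mice at 957 to 1035 CPM.

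Among the mice on an HFD, 8 members differed between fishmeal and the other supplements by edgeR's test of that difference, with log2 fold changes of -1.12 for Fdft1, -2.46 for Sqle, -1.23 for Lss, -1.41 for Cyp51, -1.33 for Msmo1, -1.41 for Nsdhl, -0.88 for Hsd17b7 and -1.30 for Dhcr7. Of 16795 genes tested, 0.155% were called and 0.143% as lower. This repeats the comparison given in the results above.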

How the results depend on the processing

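The counts of members called in fishmeal against the other HFD mice (8) and against salmon filet (8) stayed within 1.5 times under every setting other than leaving out single mice. With the clock score as a covariate the count was 0 in HFD against chow, 5 in fishmeal against chow, 0 in salmon filet and 0 in beef against chow, and 7 in fishmeal against beef. Salmon filet against chow gave 5 with DESeq2, 3 on every gene with at least 1 count, 0 fitted on all 4 groups, 0 with limma on TPM and 2 by the sample record. Fishmeal against beef gave 8 with DESeq2, 7 on every gene with at least 1 count, 2 fitted on all 4 groups, and 0 by the sample record or without mouse 31. The cause was not tested. Shares over all genes were recorded for the main fits and the fits by the sample record, and not for the other settings. With 1 mouse left out the counts ran from 2 to 7 in HFD against chow, 8 to 9 in fishmeal, 0 to 3 in salmon filet and 0 to 5 in beef against chow, 5 to 8 in fishmeal against salmon filet, 0 to 2 against beef, 0 to 0 in salmon filet against beef and 8 to 8 in fishmeal against the other HFD mice. Steps that passed ran from 3 to 6 (HFD against chow) and 4 to 4 (fishmeal). Values that changed sign were not called in any setting. Sc5d in beef against chow was at 0.23 with the clock covariate. In salmon filet against beef, Sc5d was at 0.0028 with upper quartile scaling, 0.10 with limma, 0.014 by the sample record and 0.0077 without mouse 31, and from -0.083 to 0.18 with 1 mouse left out, and Hsd17b7 was at 0.11 by the sample record and 0.023 without mouse 31. In fishmeal against the other HFD mice the step shift of Msmo1 ran from -0.057 to 0.049 and that of Dhcr7 from -0.12 to 0.045 with 1 mouse left out. With Sqle left out of the mean of the other steps, 5 steps passed in both comparisons, and shifts that did not pass changed sign for Fdft1 in HFD against chow (-0.080) and Lss in fishmeal (-0.071). No paired analysis was possible because the replicate numbers follow accession order and only name mice.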
